A study of Mus musculus with 20 samples.

Results

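Forebrain regional patterning factors are transcription factors whose expression marks where in the developing telencephalon a precursor arose. Their RNA levels were described here in neural stem cells (NSC) and in 4 progenitor populations of the neonatal mouse subventricular zone (SVZ). The set held 8 named genes out of the 45705 genes of the expression table and was chosen by gene symbol, to show whether dorsal and ventral identity was kept in NSC and in each progenitor. Emx1, Emx2 and Pax6 stood for the dorsal wall, Gsx2, Nkx2-1 and Nkx6-2 for the ventral wall, and Zic1 and Msx1 for the septal and midline wall.

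The study sorted cells from the periventricular tissue of Swiss Webster mouse pups of both sexes at postnatal day 5 by 4 surface antigens, with no treatment or mutation in any group. NSC were CD133+ CD15+ CD140a- NG2-, BNAP/GRP1 were CD133- CD15+ CD140a- NG2+, GRP2/MP3 were CD133- CD15- CD140a- NG2+, GRP3 were CD133- CD15- CD140a+ NG2+, and PFMP were CD133- CD15+ CD140a+ NG2+. Each of the 5 populations had 4 libraries of amplified polyA RNA, one in each of 4 batches (20 libraries in all), and the pups of a litter were pooled. The names BNAP/GRP1 and GRP2/MP3 each join 2 kinds of progenitor that this gate did not part, and the populations were bulk sorts, so fewer expressing cells and less RNA per cell could not be told apart.

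The wall of the lateral ventricle is a mosaic in which stem cells keep the transcription factors of the embryonic domain they came from. Dorsal cells descend from the Emx1- and Pax6-expressing pallium, lateral cells from the Gsx2-expressing ganglionic eminence, ventral cells from the Nkx2-1 and Nkx6-2 domains, and medial cells from the Zic-expressing septum. This regional code is known for setting which olfactory bulb interneurons, and which glia, a stem cell yields. Pax6 and Gsx2 oppose each other at the boundary between pallium and subpallium, and Msx1 acts downstream of BMP signals from the dorsal midline and choroid plexus.

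All 8 genes are protein-coding in GENCODE vM21 on GRCm38. Emx1 lies on the plus strand of chromosome 6 from 85187438 to 85204462, Emx2 on the plus strand of chromosome 19 from 59458372 to 59465357, and Pax6 on the plus strand of chromosome 2 from 105668900 to 105697364. Gsx2 lies on the plus strand of chromosome 5 from 75075601 to 75077893, Nkx2-1 on the minus strand of chromosome 12 from 56531958 to 56536908, and Nkx6-2 on the minus strand of chromosome 7 from 139579376 to 139582797. Zic1 lies on the minus strand of chromosome 9 from 91358058 to 91365810, and Msx1 on the minus strand of chromosome 5 from 37820485 to 37824583. Genes on the opposite strand overlap 5 of them, namely Emx2os with Emx2, Pax6os1 with Pax6, Gm26973 with Nkx2-1, Inpp5a with Nkx6-2 and Zic4 with Zic1. Whether reads were assigned by strand is not given in the sources used here, so reads of such a pair may be shared between them.

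Levels are given in RPKM, reads scaled by gene length and library total, which can be compared between genes. The depth of each library in reads is unknown, and relative depth estimated from low values ran from 0.0395 to 1.41 times that of BNAP/GRP1 of batch 1. The lowest estimate was that of BNAP/GRP1 of batch 4, where 38191 genes were above 0 and the lower quartile of genes was 4.23 RPKM. The estimate rests on low values, which were raised in this library, so whether it was shallow is not known. Its median gene was at 8.30 RPKM, against medians of 0 to 2.02 RPKM in the other 19 libraries, so a value below that median in this library lay in the lower part of its genes. The lower quartile was also above 0 in NSC, GRP2/MP3 and GRP3 of batch 4, at 0.693, 0.396 and 1.03 RPKM. It was 0 in PFMP of batch 4 and in all libraries of batches 1 to 3, so low values in batch 4 lay nearer the bulk of genes. The 5 libraries of batch 3 stood apart from the rest. Their 6 erythroid genes summed to between 228000 and 253000 RPKM, against at most 26500 RPKM in the other 15 libraries, and their 10 lung epithelium genes summed to between 984 and 1110 RPKM, against at most 101 RPKM. Most of that lung sum was Scgb1a1, at 839 to 965 RPKM in batch 3, while Ager, Cldn18 and Lamp3 were below 1 RPKM there. No member exceeded 3.18 RPKM in batch 3. The part of these differences in the results was not tested.

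The markers of the labelled cell types were checked first. The 12 NSC markers summed to 3950 to 6140 RPKM in the NSC libraries outside batch 3 and to 363 to 15000 RPKM in the progenitor libraries outside batch 3, so they were not limited to the NSC gate. The 10 markers of oligodendrocyte precursors had median sums of 2100 RPKM in GRP3 and 1430 RPKM in PFMP, against 49.8 RPKM in NSC. The 12 ependymal markers, genes of the ciliated cells that line the ventricle and can also carry CD133, were all found in NSC and summed to 1410 to 14800 RPKM there, against 4.68 to 573 RPKM in the 16 progenitor libraries. Outside batch 3 the 10 microglia markers summed to 746 to 6680 RPKM in GRP2/MP3 and to 138 to 6230 RPKM in BNAP/GRP1, against 30.4 to 81.6 RPKM in NSC. The 8 pericyte markers summed to 532, 461, 2.07 and 7480 RPKM in GRP2/MP3 of batches 1 to 4, against 2.89 to 114 RPKM in NSC. The part of ependymal, microglial or pericyte RNA in the differences between NSC and the progenitors given here was not tested.

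Emx1 was the member that set NSC apart. This homeobox gene marks the dorsal telencephalon and its descendants. In NSC it was measured at 31.0, 68.7, 1.49 and 21.6 RPKM in batches 1, 2, 3 and 4. In BNAP/GRP1 the values in the same order were 2.04, 1.30, 0 and 16.2 RPKM, and in GRP2/MP3 they were 0.210, 1.75, 0 and 1.89 RPKM. In GRP3 they were 3.43, 3.59, 0 and 2.82 RPKM, and in PFMP 2.14, 0.815, 0 and 4.63 RPKM. The 3 NSC libraries outside batch 3 were above all 16 progenitor libraries, while the NSC library of batch 3 lay among them, so the full groups overlapped. The highest progenitor library was BNAP/GRP1 of batch 4, the library whose median gene was at 8.30 RPKM.

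The mean was 30.7 ± 28.2 RPKM in NSC (SD, n = 4), against 4.89 ± 7.60 in BNAP/GRP1, 2.46 ± 1.67 in GRP3, 1.90 ± 2.03 in PFMP and 0.962 ± 0.995 in GRP2/MP3. Without batch 3 the NSC mean was 40.4 ± 24.9 RPKM (SD, n = 3). Within a batch every one of the 16 progenitor libraries was below the NSC library, a pattern that 3.28% of the 27614 tested genes shared. Differences were tested with limma on log2(RPKM + 1), a scale that understates changes of low genes, with p adjusted over all 27614 tested genes. The difference of Emx1 from NSC was -2.51 ± 0.96 (log2, SE) in BNAP/GRP1 with limma's adjusted p of 0.574 and -3.42 ± 0.96 in GRP2/MP3 with an adjusted p of 0.118. It was -2.66 ± 0.96 in GRP3 with an adjusted p of 0.418 and -2.98 ± 0.96 in PFMP with an adjusted p of 0.238. None of these passed 0.05 when the spread between batches was left in the error.

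The batch numbers of the labels paired the libraries, and with batch as a block the same 4 differences of Emx1 passed in limma. Their SE fell to 0.64, and the adjusted p was 0.00330 for GRP2/MP3, 0.0112 for PFMP, 0.0267 for GRP3 and 0.0463 for BNAP/GRP1. Emx1 was thus lower in each progenitor than in NSC once libraries were compared within their batch. For NSC against the mean of the 4 progenitors the limma difference was 2.89 ± 0.76 with an adjusted p of 0.0527, and 0.00116 with the block. Leaving out the NSC library of batch 3 alone, without the block, limma called Emx1 in GRP2/MP3, GRP3 and PFMP, with an adjusted p of 0.00790, 0.0359 and 0.0181, and without BNAP/GRP1 of batch 4 it called the GRP2/MP3 difference at 0.0451. Without batch 3 and without the block, limma's adjusted p was 0.00945 for GRP2/MP3, 0.0260 for PFMP, 0.0567 for GRP3 and 0.0991 for BNAP/GRP1. Without batch 3 and with the block it was 0.00582, 0.0165, 0.0372 and 0.0668 in that order, so the call in BNAP/GRP1 was lost.

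**Figure D1:**
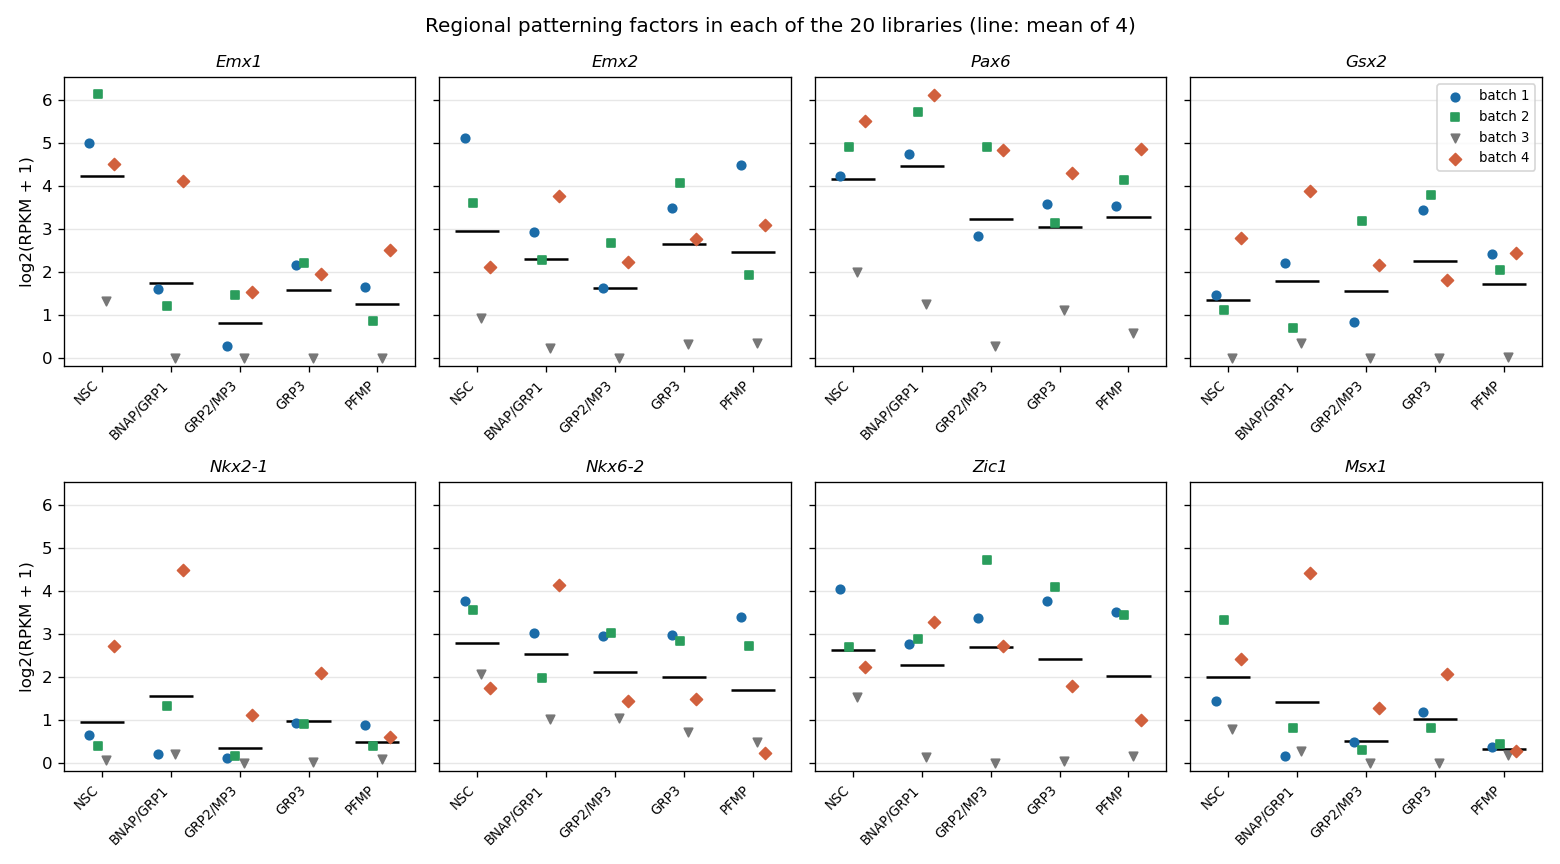
The level of each of the 8 genes, as log2(RPKM + 1), in NSC and the 4 progenitor populations, with 1 point per library coloured by batch and a line at the mean of the 4 libraries. Emx1 stands above the progenitors in the NSC libraries of batches 1, 2 and 4, and Msx1 is lower in all PFMP than in all NSC libraries. The other genes overlap between NSC and each progenitor, and no gene exceeds 3.18 RPKM in batch 3.

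Among the 8 members no other gene was called against NSC. Without the block limma called 0 of 8 in each of the 4 comparisons, where 1.14% of tested genes were called for PFMP, 1.05% for GRP3, 1.12% for GRP2/MP3 and 0.760% for BNAP/GRP1. The counts with an unadjusted p under 0.05 were 2, 1, 1 and 1 of 8, Emx1 in each and Msx1 in PFMP. Of all 27614 tested genes, 1623, 1552, 1600 and 1629 were under that limit in the same order. With the block limma called 1 of 8, Emx1, in each comparison, where 2.79%, 2.60%, 3.08% and 2.09% of tested genes were called. For NSC against the mean of the progenitors limma called 0 of 8 without the block, where 1.98% of genes were called. At an unadjusted p under 0.05 this comparison held 1 of 8 members and 1898 of the 27614 tested genes. With the block 1 of 8 was called, where 4.36% were called. One gene of 8 is a single call, and the shares of called genes are its background.

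Emx2, the paralogue of Emx1 with a role in dorsal and medial cortex, was not called against NSC. Over the 20 libraries with batch means removed, Pearson's r of Emx2 with Emx1 was 0.635. In NSC Emx2 was measured at 33.7, 11.1, 0.905 and 3.33 RPKM in batches 1 to 4. It was at 6.59, 3.83, 0.176 and 12.6 RPKM in BNAP/GRP1 and at 2.07, 5.34, 0 and 3.71 RPKM in GRP2/MP3. It was at 10.1, 15.6, 0.248 and 5.73 RPKM in GRP3 and at 21.3, 2.76, 0.267 and 7.52 RPKM in PFMP. NSC was the highest population in batch 1 and the lowest in batch 4, and all groups overlapped. The limma differences from NSC lay between -1.31 ± 1.05 in GRP2/MP3 (adjusted p = 1) and -0.29 ± 1.05 in GRP3 (adjusted p = 1). Within batches 11 of 16 progenitor libraries were below NSC, with 4 of 4 in batch 1 and 0 of 4 in batch 4. The antisense Emx2os averaged 0.606 to 2.54 RPKM over the populations.

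Pax6, a paired-box factor of the pallium that also acts in olfactory bulb interneuron production, was the most abundant member by its median over the 20 libraries, 17.1 RPKM. In NSC it was measured at 17.6, 28.7, 2.98 and 44.4 RPKM. In BNAP/GRP1 it was at 25.8, 51.6, 1.36 and 68.4 RPKM, and in GRP2/MP3 at 6.16, 28.9, 0.211 and 27.6 RPKM. In GRP3 it was at 11.0, 7.77, 1.17 and 18.7 RPKM, and in PFMP at 10.6, 16.5, 0.491 and 27.7 RPKM. BNAP/GRP1 was above every other population in batches 1, 2 and 4 and NSC was highest in batch 3, with all groups overlapping. The limma difference of BNAP/GRP1 from NSC was 0.30 ± 1.19 (adjusted p = 0.940), and the other 3 differences lay between -1.12 ± 1.19 in GRP3 and -0.88 ± 1.19 in PFMP (adjusted p = 1). BNAP/GRP1 stood above GRP3 by 1.42 ± 1.19 (limma adjusted p = 0.950), and with the block the SE was 0.43, the unadjusted p 0.00373 and the adjusted p 0.574. Pax6os1, on the other strand, averaged 6.79 RPKM in NSC and 0.164 to 2.31 RPKM in the progenitors.

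In Pax6 every library was above 0, and it ranked between the 83.1 and 96.2 percentile of all 45705 genes in the 15 libraries outside batch 3. In batch 3 it ranked between the 63.6 and 76.1 percentile. Nkx6-2 was the other member above 0 in all 20 libraries. Emx1 was at 0 in 4 libraries, Gsx2 in 3, Msx1 in 2, and Emx2, Nkx2-1 and Zic1 in 1 each, and GRP2/MP3 of batch 3 held 6 of these.

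**Figure D2:**
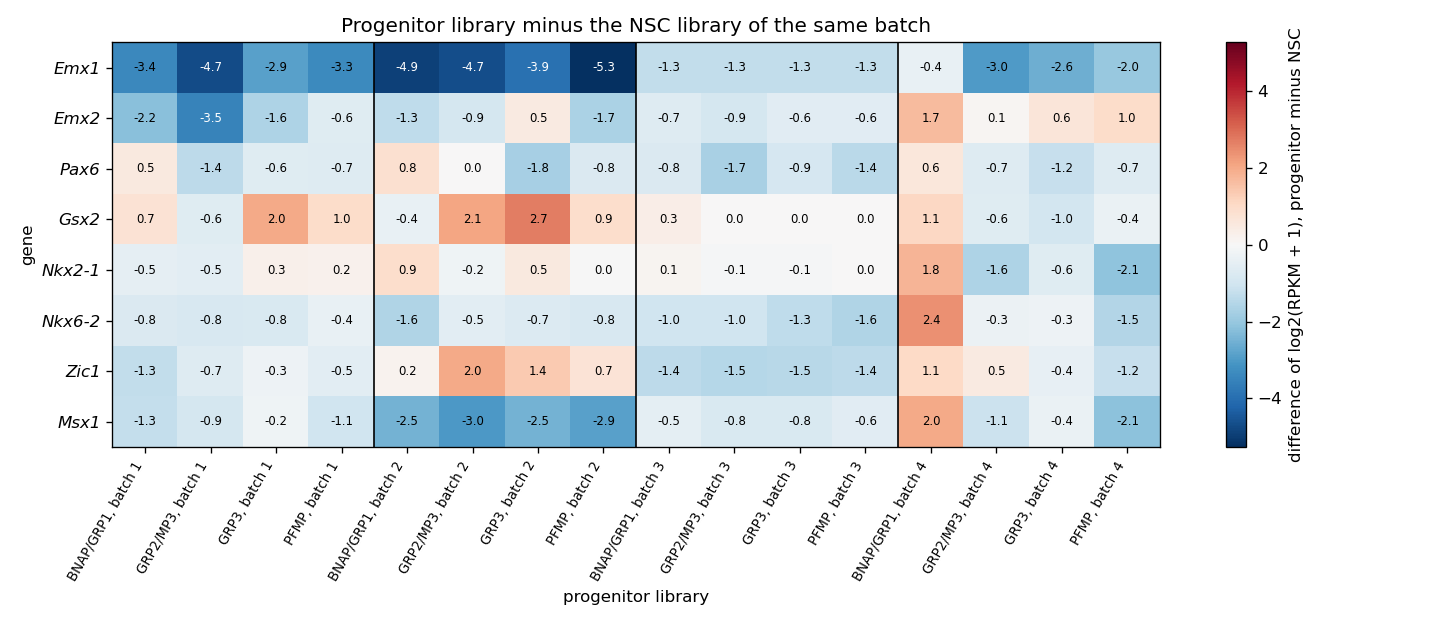
The difference in log2(RPKM + 1) between each of the 16 progenitor libraries and the NSC library of its batch, with 1 row per gene and libraries ordered by batch. Emx1 is below 0 in all 16, Msx1 and Nkx6-2 are below 0 in 15 with BNAP/GRP1 of batch 4 as the exception, and Gsx2 is below 0 in 5, none of them in batch 3, where NSC was at 0.

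Gsx2, the homeobox gene of the lateral ganglionic eminence, was low in NSC and reached its highest mean, 6.27 ± 6.01 RPKM (SD, n = 4), in GRP3. Its levels in NSC were 1.75, 1.14, 0 and 5.93 RPKM in batches 1 to 4. In BNAP/GRP1 it was at 3.60, 0.624, 0.268 and 13.7 RPKM, and in GRP2/MP3 at 0.787, 8.00, 0 and 3.48 RPKM. In GRP3 it was at 9.82, 12.8, 0 and 2.51 RPKM, and in PFMP at 4.34, 3.09, 0.0140 and 4.38 RPKM. GRP3 exceeded the other populations in batches 1 and 2 but was the lowest in batch 4, and the groups overlapped. All 4 limma differences from NSC were above 0 and none exceeded its SE, from 0.20 ± 0.96 in GRP2/MP3 to 0.92 ± 0.96 in GRP3 (adjusted p = 1 in both). The NSC library of batch 3 was at 0, so none could be below it there, and in the other batches 5 of 12 progenitor libraries were below NSC.

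Nkx2-1, the factor of the medial ganglionic eminence, was near the floor in most libraries. Only 5 of 20 libraries reached 1 RPKM, and 4 of those 5 were of batch 4, each with a lower quartile of all genes above 0 RPKM. NSC held 0.568, 0.316, 0.0501 and 5.52 RPKM, and the BNAP/GRP1 libraries were at 0.142, 1.51, 0.153 and 21.3 RPKM. In GRP2/MP3 it was at 0.0751, 0.112, 0 and 1.14 RPKM, in GRP3 at 0.884, 0.870, 0.00576 and 3.22 RPKM, and in PFMP at 0.847, 0.306, 0.0657 and 0.516 RPKM. The highest value was that of the BNAP/GRP1 library of batch 4, where the upper quartile of all genes was 14.3 RPKM. The limma differences from NSC ran from -0.62 ± 0.79 in GRP2/MP3 (adjusted p = 1) to 0.59 ± 0.79 in BNAP/GRP1 (adjusted p = 0.866).

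Nkx6-2, a homeobox gene of the boundary between the ganglionic eminences that also acts in oligodendrocytes, was spread over all populations. The NSC libraries were at 12.6, 10.7, 3.18 and 2.36 RPKM, and the BNAP/GRP1 libraries were at 7.03, 2.89, 1.03 and 16.6 RPKM. In GRP2/MP3 it was at 6.67, 7.06, 1.04 and 1.68 RPKM, in GRP3 at 6.81, 6.09, 0.649 and 1.80 RPKM, and in PFMP at 9.46, 5.51, 0.403 and 0.159 RPKM. NSC held the highest value in batches 1, 2 and 3, and in batch 4 it was second to BNAP/GRP1. The limma differences from NSC were all below 0, from -1.08 ± 0.85 in PFMP (adjusted p = 1) to -0.25 ± 0.85 in BNAP/GRP1 (adjusted p = 0.931). Without batch 3 the BNAP/GRP1 difference was 0.015, so its sign turned. The groups overlapped in every comparison.

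Zic1, a zinc-finger factor of the septum and medial wall, showed no population that led across batches. The 4 NSC libraries held 15.5, 5.50, 1.87 and 3.67 RPKM, and the BNAP/GRP1 libraries were at 5.78, 6.34, 0.0958 and 8.67 RPKM. In GRP2/MP3 it was at 9.28, 25.0, 0 and 5.51 RPKM, in GRP3 at 12.5, 15.9, 0.0344 and 2.45 RPKM, and in PFMP at 10.4, 9.83, 0.112 and 0.993 RPKM. NSC was the highest population in batch 1 and the lowest in batch 2, where 0 of 4 progenitor libraries were below it. The limma differences from NSC ran from -0.60 ± 1.08 in PFMP to 0.070 ± 1.08 in GRP2/MP3 (adjusted p = 1 in both). The GRP3 difference, -0.20, turned to 0.22 without batch 3, and the one in GRP2/MP3 turned to -0.57 with a pseudocount of 0.1.

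Msx1, a homeobox target of BMP signalling, reached 1 RPKM in 7 of 20 libraries. Its NSC values were 1.68, 8.93, 0.720 and 4.31 RPKM, and the BNAP/GRP1 libraries were at 0.112, 0.758, 0.202 and 20.4 RPKM. In GRP2/MP3 it was at 0.397, 0.226, 0 and 1.42 RPKM, in GRP3 at 1.28, 0.753, 0 and 3.15 RPKM, and in PFMP at 0.281, 0.353, 0.136 and 0.201 RPKM. All 4 PFMP libraries were below all 4 NSC libraries, a pattern that 3.51% of the 27614 tested genes shared. The other 31 of the 32 pairs of a member and a progenitor overlapped with NSC. The limma difference in PFMP was -1.67 ± 0.79, with an unadjusted p of 0.0464 and an adjusted p of 0.820. Without batch 3 it was -2.03 ± 0.92, with limma's adjusted p of 0.504, and 0.290 with the block. The others were -1.47 ± 0.79 in GRP2/MP3 and -0.97 ± 0.79 in GRP3 (adjusted p = 1 in both), and -0.57 ± 0.79 in BNAP/GRP1 (adjusted p = 0.867). The BNAP/GRP1 library of batch 4 exceeded the other 19. It was also the only progenitor library above the NSC library of its batch, as it was for Nkx6-2. The share of tested genes with this pattern was not computed.

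**Figure D3:**
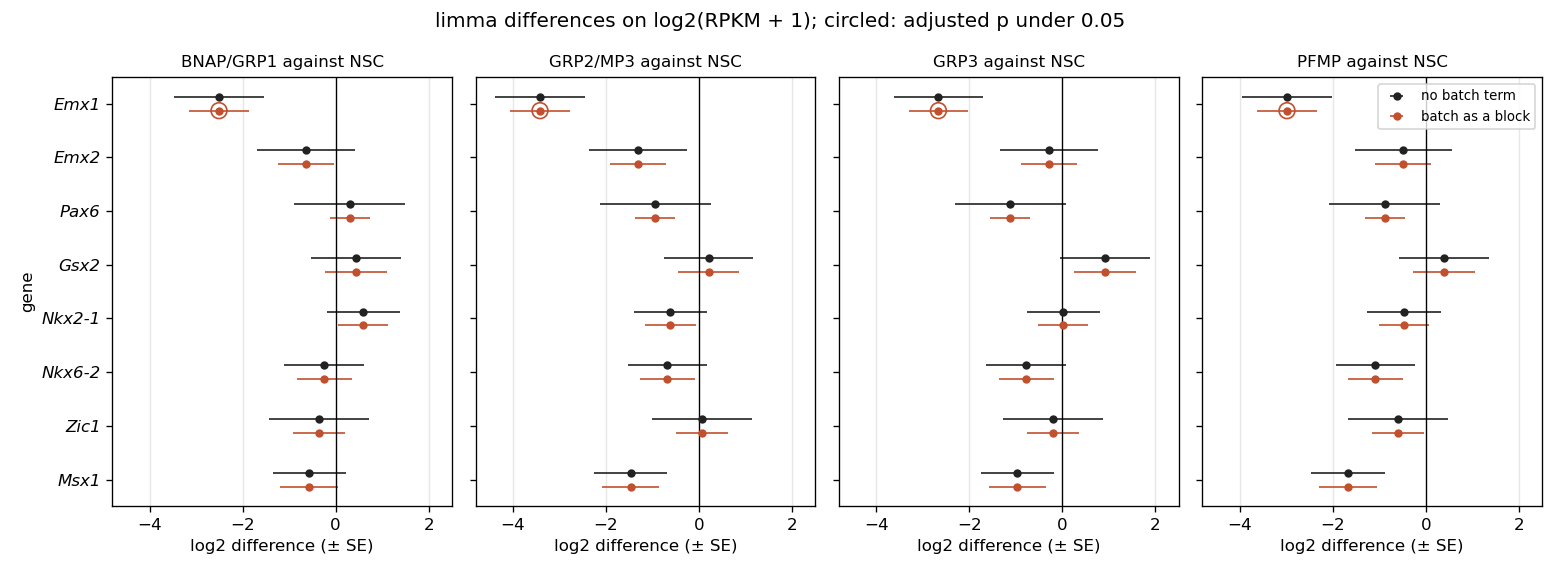
The limma difference from NSC in log2(RPKM + 1) for each gene in BNAP/GRP1, GRP2/MP3, GRP3 and PFMP, with bars of 1 SE, without a batch term (black) and with batch as a block (orange). Circles mark an adjusted p under 0.05, which Emx1 alone reaches, in all 4 panels and with the block only.

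By wall, the 3 dorsal members had median limma differences from NSC of -0.88 for PFMP, -1.12 for GRP3, -1.31 for GRP2/MP3 and -0.64 for BNAP/GRP1. Over all tested genes the medians in that order were -0.20, 0.047, -0.077 and 0.38. For the 3 ventral members the medians were -0.46, 0.020, -0.62 and 0.44, and for the 2 midline members -1.14, -0.59, -0.70 and -0.46. The dorsal and the midline median each lay below the median of all genes in each progenitor. The ventral median lay below it in PFMP, GRP3 and GRP2/MP3 and above it in BNAP/GRP1. The 15 tested of 16 other dorsal genes had medians of -0.45, -0.055, -0.34 and 0.25 in that order and also lay below the median of all genes in each. So did the 8 tested of 15 other midline genes, at -1.04, -0.65, -0.73 and -0.026. A list of 4 genes of the whole telencephalon was below it too, at -0.75, -0.82, -1.21 and -0.85. The 18 tested of 21 other ventral genes lay above it in each, at 0.59, 0.15, 0.49 and 0.77. The medians of the members are descriptions of 3, 3 and 2 genes.

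No member was called between any pair of progenitors. In the 6 comparisons of 2 progenitors, limma called 0 of 8 members, with 0 of 8 at an unadjusted p under 0.05, and 0% of all tested genes were called. With the block 0 members and again 0% of all tested genes were called. At an unadjusted p under 0.05 the block gave Pax6 higher in BNAP/GRP1 than in GRP2/MP3, GRP3 and PFMP, and Nkx2-1 higher in BNAP/GRP1 than in GRP2/MP3. Of all 27614 tested genes, 1551, 2262 and 5222 were under that limit for BNAP/GRP1 against GRP2/MP3, GRP3 and PFMP with the block. The SE without the block was 0.79 to 1.19 on the log2 scale, and with it 0.43 to 0.66.

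Dorsal, ventral and midline genes beyond the 8 members were read the same way. Of 16 other dorsal, 21 other ventral and 15 other midline genes, 15, 18 and 8 were tested. Without the block limma called 0 of them against NSC in any progenitor, where 1.38% of tested genes were called in at least 1. The lowest limma adjusted p was that of Otx2 in PFMP, 0.0675. For NSC against the mean of the 4 progenitors limma called 1 of them, Otx2, higher in NSC by 2.87 ± 0.62 with an adjusted p of 0.0121, where 1.98% of tested genes were called. With the block limma called 4 genes, Lhx2, Gli3, Six3 and Otx2, all lower in a progenitor than in NSC, where 4.27% of tested genes were called. The same 4 genes were called higher in NSC than the mean of the progenitors with the block, where 4.36% were called.

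Otx2, a homeobox gene of the forebrain midline and choroid plexus, was also highest in NSC. The NSC values were 35.0, 28.6, 5.85 and 14.0 RPKM. In BNAP/GRP1 it was at 0.810, 3.44, 0 and 11.7 RPKM, and in GRP2/MP3 at 2.14, 1.16, 0 and 3.81 RPKM. In GRP3 it was at 2.14, 1.20, 0 and 3.06 RPKM, and in PFMP at 1.77, 2.55, 0.0759 and 1.18 RPKM. Each NSC library was above all libraries of GRP2/MP3, GRP3 and PFMP. For PFMP 3.51% of the 27614 tested genes shared this pattern, and for GRP2/MP3 and GRP3 the share was not computed. The limma difference ran from -3.05 ± 0.79 in PFMP to -2.52 ± 0.79 in BNAP/GRP1. With the block the adjusted p was 0.00188 for PFMP, 0.00243 for GRP3, 0.00268 for GRP2/MP3 and 0.0122 for BNAP/GRP1. Without batch 3 and with the block, limma's adjusted p for Otx2 was 0.0234, 0.0313, 0.0344 and 0.114 in that order, so the call in BNAP/GRP1 was lost. Without batch 3 and without the block it was 0.0291, 0.0377, 0.0422 and 0.146.

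Lhx2, a LIM-homeobox gene of the cortical primordium and of neural stem cells, was at 61.1, 46.6, 7.41 and 14.6 RPKM in NSC and at 2.93, 14.9, 0.142 and 6.44 RPKM in GRP2/MP3. With the block limma called it in GRP2/MP3 (-2.38 ± 0.54, adjusted p = 0.0177). In PFMP, GRP3 and BNAP/GRP1 the Lhx2 differences were -1.54, -1.46 and -1.50, with limma's adjusted p of 0.190, 0.239 and 0.208. Six3, an anterior forebrain factor that acts in the lateral ganglionic eminence, was at 16.0, 6.82, 1.81 and 7.41 RPKM in NSC and at 0.111, 0.740, 0 and 3.42 RPKM in GRP2/MP3. It also fell in GRP2/MP3 with the block (-2.13 ± 0.56, limma adjusted p = 0.0444). In PFMP, GRP3 and BNAP/GRP1 the Six3 differences were -1.57, -1.37 and -1.45, with limma's adjusted p of 0.194, 0.319 and 0.248.

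Gli3, a transducer of hedgehog signals with a repressor role in dorsal patterning, was at 21.3, 9.95, 1.83 and 3.60 RPKM in NSC and at 1.86, 1.22, 0.0426 and 0.637 RPKM in PFMP. It fell in PFMP with the block (-2.05 ± 0.53, limma adjusted p = 0.0408). In GRP3, GRP2/MP3 and BNAP/GRP1 the Gli3 differences were -1.90, -1.82 and -0.96, with limma's adjusted p of 0.0644, 0.0736 and 0.393. Without the block the limma adjusted p of the called differences of Lhx2, Six3 and Gli3 was 0.887, 0.466 and 0.401. Without batch 3 and with the block it was 0.114, 0.140 and 0.124, so none of these 3 calls held without that batch. With all 20 libraries no gene was called between any 2 progenitors, with or without the block, so a called population is not shown to differ from the others.

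The other genes of these lists with the highest mean level were not called. Meis2, a homeobox gene of the ganglionic eminence and its neurons, averaged 76.2 ± 59.5 RPKM in NSC and 36.8 to 53.2 RPKM in the progenitors. Nr2f1, a nuclear receptor that patterns the cortex, averaged 36.0 ± 35.2 RPKM in NSC, 14.2 and 17.6 RPKM in BNAP/GRP1 and GRP2/MP3, and 70.5 and 33.2 RPKM in GRP3 and PFMP. Sp8, a zinc-finger factor of interneuron precursors, was highest in batch 4. In batch 4 it was at 408 RPKM in GRP2/MP3, 256 in PFMP, 111 in NSC, 92.0 in GRP3 and 22.3 in BNAP/GRP1, and in the other batches it was at most 17.3 RPKM.

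**Figure D4:**
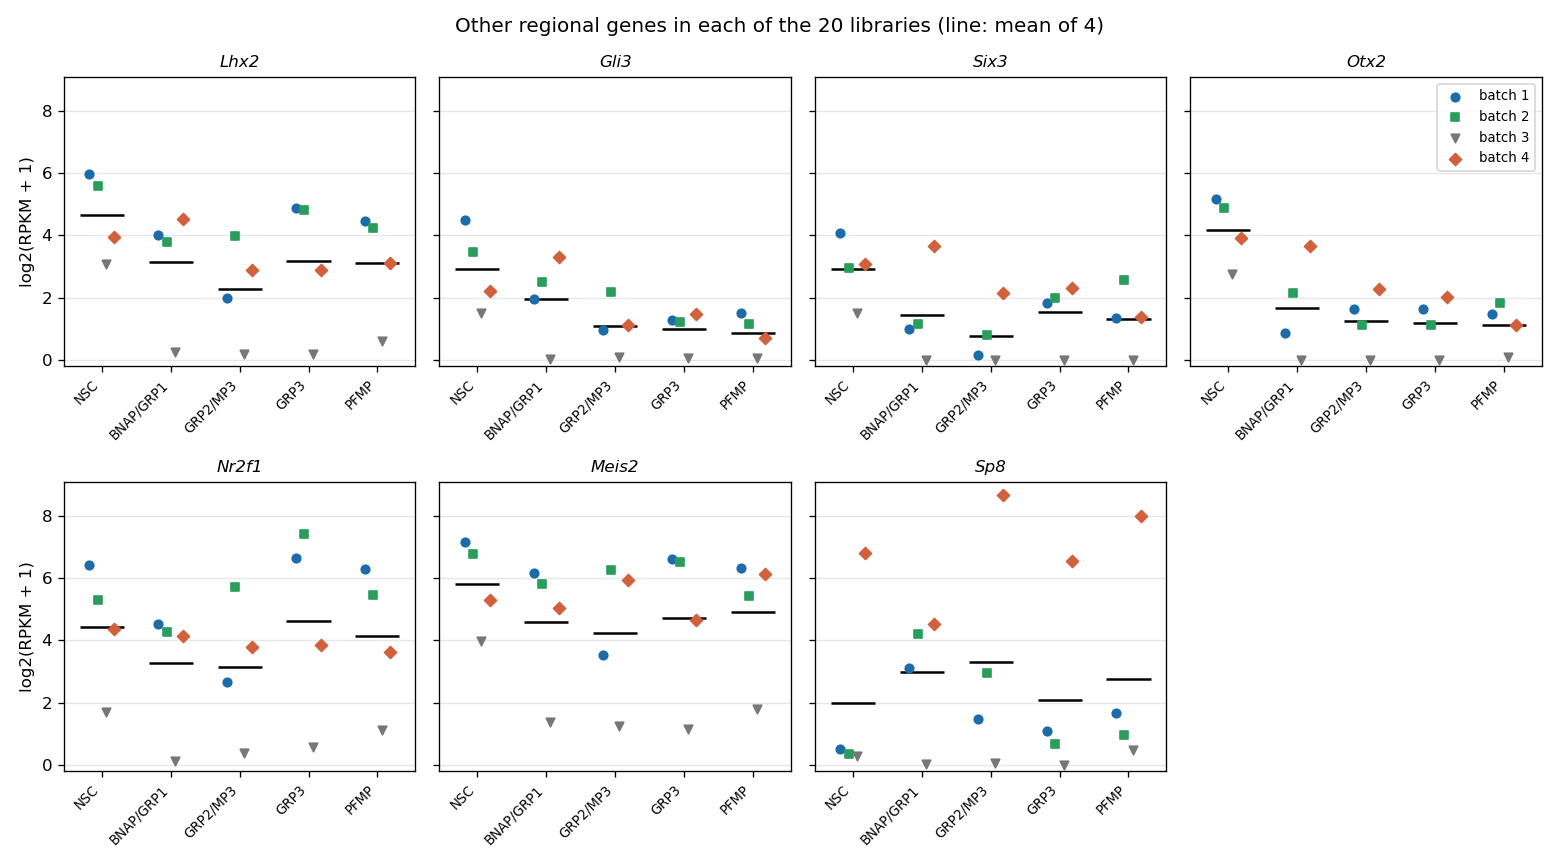
The level of 7 other regional genes, as log2(RPKM + 1), in NSC and the 4 progenitor populations, with 1 point per library coloured by batch and a line at the mean of the 4. Lhx2, Gli3, Six3 and Otx2 have their highest mean in NSC, and Sp8 is highest in batch 4.

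Gsx1, the paralogue of Gsx2, was chosen after its values were seen. It was at 39.9, 33.6, 0 and 14.7 RPKM in GRP3 and at 14.8, 40.4, 0.142 and 2.30 RPKM in PFMP, against 0.138, 0.0199, 0 and 1.79 RPKM in NSC. In BNAP/GRP1 it was at 1.04, 0.160, 0 and 10.5 RPKM, and in GRP2/MP3 at 0.353, 2.11, 0 and 2.60 RPKM. GRP3 was above NSC in batches 1, 2 and 4. The limma difference in GRP3 was 3.18, with an adjusted p of 0.417 without the block and 0.0711 with it. Without batch 3 it was 4.25, and limma called Gsx1 higher in GRP3 than in NSC with an adjusted p of 0.0301, and 0.0253 with the block. The call thus rested on leaving out batch 3, where Gsx1 was at 0 in NSC and GRP3. Dmrta1 of the dorsal list, also picked after its values were seen, was at 15.8, 22.0, 0.135 and 5.04 RPKM in GRP3. In PFMP it was at 7.61, 7.31, 0.163 and 1.37 RPKM, and in NSC at 0.419, 0.115, 0.180 and 1.67 RPKM. Without the block, limma called 0 genes of the other dorsal list higher in GRP3 than in NSC, with or without batch 3. Gsx1 is of the ventral list and Dmrta1 of the dorsal list. Both were picked on these values, so they do not stand for their lists.

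The genes most like each member were found by Pearson's r over the 20 libraries on log2(RPKM + 1) with batch means removed, among genes averaging at least 5 RPKM. The libraries share batches and differ in depth, so r is a description. For Emx1 they were Dgat2 (r = 0.974), Calml4 (0.955) and Dnal4 (0.955), with means of 70.2, 294 and 100 RPKM in NSC and of 1.57 to 26.8 RPKM in the progenitors. Those of Emx2 were Mpdz, Dpy19l3 and Stam (r = 0.889 to 0.935), those of Pax6 were Acer3, Smo and Fgfr2 (0.714 to 0.743), and those of Gsx2 were Fam188a, B4galt6 and Mfn2 (0.909 to 0.924). Those of Zic1 were Axin2, Pxdn and P2ry14 (0.796 to 0.825). For Nkx2-1 they were Gm25780, Ifi202b and Gm23171 (0.924 to 0.930), for Nkx6-2 Gm2163, Ggnbp1 and RP24-328P2.7 (0.882 to 0.886), and for Msx1 Gm13778, Ggnbp1 and 4930404N11Rik (0.935 to 0.945). Among the members themselves the highest r was that of Nkx6-2 with Msx1, 0.814, and BNAP/GRP1 of batch 4 is the highest library of both.

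Emx1 was set beside the markers of the cells the NSC gate could also hold. The 12 ependymal markers summed to 2840, 14800, 1410 and 8380 RPKM in the NSC libraries of batches 1 to 4. The NSC library of batch 2 was highest and that of batch 3 lowest in both Emx1 and these markers. NSC of batch 4 was above NSC of batch 1 in the markers but below it in Emx1. Limma called 9, 8, 9 and 9 of the 12 lower than NSC in BNAP/GRP1, GRP2/MP3, GRP3 and PFMP, with none higher. Foxj1, the regulator of motile cilia, was at 33.1 to 352 RPKM in NSC and at 0.00416 to 9.42 RPKM in the progenitors. The 8 choroid plexus markers summed to 5.59 to 206 RPKM in NSC and 0.166 to 81.5 RPKM in the progenitors, and none of the 8 was at 0 in all NSC libraries. In NSC of batches 1 to 4 Folr1 was at 49.4, 178, 2.91 and 17.0 RPKM, and Ttr at 0.507, 2.84, 0 and 1.16 RPKM. Kl, Aqp1 and Slc4a5 were below 1 RPKM in NSC of batches 1 to 3. Ttr was highest in PFMP of batch 2, at 32.2 RPKM. The sum thus does not stand for the whole list. Pearson's r was taken over the 20 libraries with batch means removed, which share batches and differ in depth. That of Emx1 was 0.787 with the ependymal sum and 0.730 with the choroid plexus sum, and that of Msx1 was 0.533 and 0.815. Population means were left in, so these r hold the difference of NSC from the progenitors. The part of ependymal or choroid plexus RNA in the values of Emx1, Msx1, Otx2, Lhx2, Six3 and Gli3 was not tested.

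**Figure D5:**
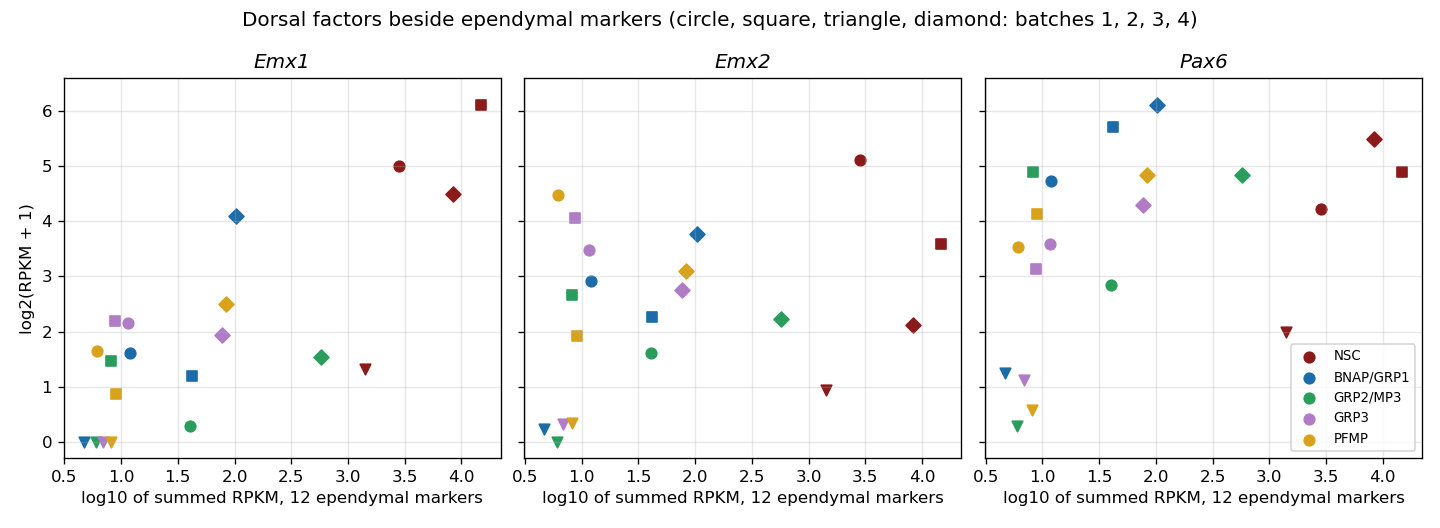
The level of Emx1, Emx2 and Pax6, as log2(RPKM + 1), against the log10 of the summed RPKM of 12 ependymal markers, with 1 point per library coloured by population and shaped by batch. The 4 NSC libraries sit furthest right, at 1410 RPKM and above, and 3 of them lead in Emx1, while in Emx2 and Pax6 the NSC and progenitor libraries overlap.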

How the data were processed

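RNA-seq was measured in 20 libraries, 5 sorted populations in 4 batches. The deposited table holds RPKM values per gene. Per the labels and the study's methods, the authors trimmed reads with cutadapt 3.4 after FastQC 0.11.9, aligned them to GRCm38 with STAR 2.6.1, estimated abundance with Salmon 1.9.0 and compared groups with DESeq2 1.26.0. The gene lengths, read totals and annotation release behind the RPKM are not given in the sources used here, so the depth in reads is unknown, and only relative depth was estimated from low values. A polyA amplification preceded library construction. The table has 45705 genes, 94 symbols occur more than once, and 26 columns without values were not used.

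Genes at 1 RPKM or more in at least 4 libraries (27614) were tested on log2(RPKM + 1) with limma 3.58.1 in R 4.3.3, with a trended prior and all 20 libraries in one fit, without a batch term. P-values were two-sided and Benjamini-Hochberg adjusted over these genes, called under 0.05. The authors' DESeq2 test needs counts, so limma was used on the deposited RPKM. The alternative fit had batch as a block. Deviations of libraries from their population means correlated within batches (median r = 0.337, 0.262, 0.769 and 0.581 in batches 1 to 4, lowest 0.0341 of any pair). Between batches the median was -0.254, but taking out population means pushes it below 0, so it adds no separate evidence. The labels give the batch and libraries correlated within it, so the batch pairs the libraries. Results were also computed without a filter, with only genes averaging 5 RPKM, with a pseudocount of 0.1, with median-of-ratios scaling and without each library in turn. The fit was tested on simulated data. Replicates were separate batches, and all pups of a litter were pooled, so p-values do not measure the spread between pups. Without the block they measure the spread between libraries of different batches. With the block they measure how differences between populations varied over the batches.

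The text names the 8 members, the list genes called in at least 1 progenitor with or without the block, the 2 genes of each list with the highest mean, and for each member the 3 genes with the highest r. A gene that this rule names is not reported here. The members and lists were chosen with earlier results of these data known. Gsx1 and Dmrta1 were added outside the rule after their values were seen. Positions are from GENCODE vM21. No count of reads per gene was analysed here.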

Additional observations from a re-analysis of the deposited data

Results flagged for a closer look

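In 40 groups of 4 libraries, 1 group for each gene and population, 5 held a library far from the other 3. Chance flags about 1 in 20 groups. In 3 of the 5 the library apart was of batch 3 and low. Emx1 was at 0 RPKM in GRP3 of batch 3, against 2.82 to 3.59 RPKM in the other GRP3 libraries. Gsx2 was at 0.0140 RPKM in PFMP of batch 3, against 3.09 to 4.38 RPKM. Zic1 was at 0.0958 RPKM in BNAP/GRP1 of batch 3, against 5.78 to 8.67 RPKM. In the other two the library was of batch 4 and high. Nkx2-1 was at 1.14 RPKM in GRP2/MP3 of batch 4, against 0 to 0.112 RPKM, and Msx1 was at 20.4 RPKM in BNAP/GRP1 of batch 4, against 0.112 to 0.758 RPKM.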

How the results depend on the processing

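The counts of members called by limma against NSC were 0 in each comparison. With batch as a replicate block each count was 1, for the 4 progenitors and for NSC against their mean, Emx1 each time, and the other regional genes called were 4. The block changed no other call of a member. Leaving out 1 library gave 0 to 0 calls in BNAP/GRP1 and between progenitors, and 0 to 1 in GRP2/MP3, GRP3, PFMP, the mean of the progenitors and the other regional genes. The libraries behind a count of 1 were NSC of batch 3 for each of these, BNAP/GRP1 of batch 4 for the last 2, PFMP of batch 4 for the mean, and BNAP/GRP1 of batch 3 for the other regional genes. The count for the mean was also 1 with the stricter filter and 1 with median-of-ratios scaling, which gave 1 other regional gene. The alternatives without batch 3, or without BNAP/GRP1 of batch 4 in every fit, were chosen after seeing the data. Without batch 3 the counts were 1 in GRP2/MP3, 1 in PFMP, 1 for the mean (also with the block) and 2 other regional genes (also with the block). Without that BNAP/GRP1 library it was 1 in GRP2/MP3. The cause was not tested.

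Emx1 kept its direction under all alternatives run. The difference from NSC of some uncalled members changed sign. Without batch 3 it was 0.015 for Nkx6-2 in BNAP/GRP1 and 0.22 for Zic1 in GRP3, with a pseudocount of 0.1 it was -0.57 for Zic1 in GRP2/MP3, and with median-of-ratios scaling it was -0.036 for Nkx2-1 in GRP3. The ranges over leaving out 1 library that crossed 0 were as follows. For Emx2 it ran from -1.31 to 0.088 in BNAP/GRP1, -0.96 to 0.49 in GRP3 and -1.16 to 0.24 in PFMP. For Pax6 it ran from -0.42 to 1.37 in BNAP/GRP1, -1.66 to 0.040 in GRP2/MP3 and -1.60 to 0.019 in PFMP. For Gsx2 it ran from -0.26 to 0.93 in BNAP/GRP1, -0.34 to 0.72 in GRP2/MP3 and -0.060 to 0.95 in PFMP. For Nkx2-1 it ran from -0.38 to 1.18 in BNAP/GRP1, -0.35 to 0.60 in GRP3 and -0.76 to 0.12 in PFMP. For Nkx6-2 it ran from -0.79 to 0.25 in BNAP/GRP1. For Zic1 it ran from -0.73 to 0.35 in BNAP/GRP1, -0.60 to 0.97 in GRP2/MP3, -0.76 to 0.59 in GRP3 and -1.09 to 0.024 in PFMP.

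RPKM without read totals gives no counting interval, 4 libraries a group spread over 4 batches set the SE, and low members at 0 in batch 3 give no fold there.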
